A study of Paulownia elongata with 6 samples.

Results

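Among the leaf genes of Paulownia elongata, a fast-growing tree, 10 of 537 genes had an isoform whose share of its gene's reads differed by at least 20 percentage points between every heat library and every control library. A gene here is a set of isoforms that share an identifier, and a share is the percentage of the gene's estimated reads assigned to 1 isoform. The 537 genes are those with 2 or more isoforms and at least 20 reads in each of the 6 libraries, out of 1210 genes with 2 or more isoforms and 39038 genes in all. The rule took 1.86% of the genes it could be applied to. The 10 genes were chosen by these read shares in heat against control, so their shares in that contrast are given as a description, without a test.

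Per the labels, the leaf RNA came from plants with a stated age of 3 years that spent 14 days in potting soil. The heat group holds 3 libraries of plants exposed to 40 °C over 24 hours, of which 12 were light and 12 dark. The control group holds 3 libraries labelled as 25 °C. The controls' labels carry the same text on the heat protocol as the heat labels, so the groups rest on the treatment label alone. No genotype, clone or pooling is stated, nor whether replicates were different plants, so the spread between libraries may be technical. Without gene names the leaf identity of the libraries could not be checked on marker genes.

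A plant gene can give rise to several RNAs by alternative splicing, by different start or end sites, or because alleles and near-identical gene copies are grouped under 1 name. In leaves, retention of introns is a common form of alternative splicing, and in Arabidopsis heat is known to change the splicing of many transcripts, among them those of heat shock factors. Isoforms with different coding sequences can encode proteins of different length. The files give identifiers and coding lengths and do not pair them with gene names, so neither the function of these genes nor the kind of difference between their isoforms is known here. For the same reason 4 genes are named by identifier and the other 6 by the coding lengths of their isoforms.

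In all 10 genes the isoform with the larger gain in heat, called the gaining isoform, had a longer coding sequence than the isoform with the larger loss, called the losing isoform. The 537 genes as a whole, these 10 included, leaned the same way: the longest isoform had the higher share in every heat library, by over 15 points, in 30 genes and the lower in 2. The gaining isoforms were 426 to 2361 bases long with a median of 1368 bases, and the losing ones 261 to 2199 bases with a median of 766.5 bases. The difference within a gene ran from 24 to 783 bases. This held for shares of reads, in which a long coding sequence counts for more per molecule. When shares were taken from TPM, which divides reads by effective length, the rule took 12 genes, 5 of them among the 10. The longer isoform gained in 6 of those 12 genes and the shorter in the other 6. The order of the libraries is largely carried over from reads to TPM, and the gaining isoform's TPM share was higher in every heat library than in every control for all 10 genes. That count uses all coding models of an isoform. With the longest model of each isoform alone, the groups overlapped in the gene of 1299 and 519 bases. Its TPM share was then 27.7% in heat replicate 1 and 29.5% in control 3.

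Of the 10 genes, 9 had 2 isoforms and 1 had 3. In 5 of them the isoform numbers skip a value or start above 1, so reads of isoforms with those numbers, if any, were not counted here. Mean shares of the gaining isoform ran from 43.6% to 73.0% in heat, with a median of 57.4% over the genes. In the controls they ran from 0 to 31.3%, with a median of 11.6%. The isoform with the largest mean share was a different one in heat and control for 9 of the 10 genes by reads, and for 3 by TPM.

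**Figure D1:**
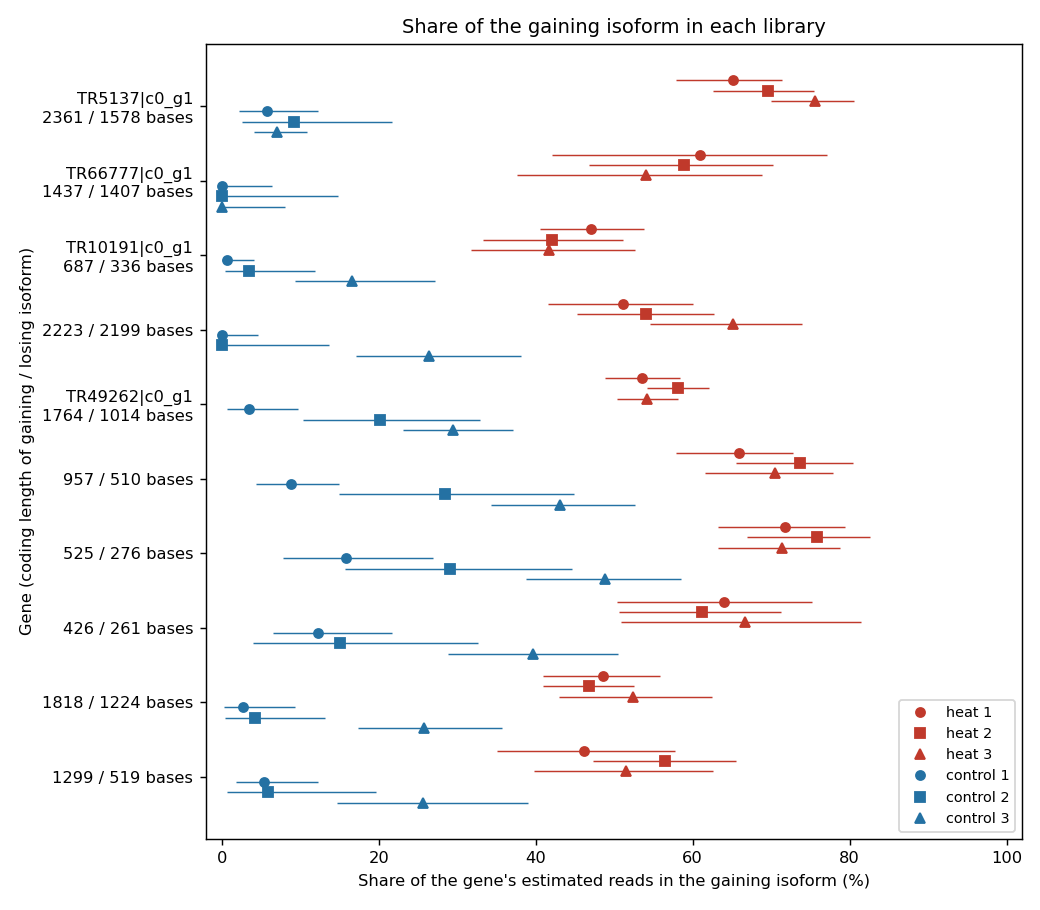
Share of the gene's estimated reads in the gaining isoform (x axis, %) for each of the 10 genes (y axis, with the coding lengths of gaining and losing isoform), by library; bars are exact 95% binomial intervals for counting error. In every gene the 3 heat libraries lie to the right of the 3 controls, as the rule requires, and control 3 is the rightmost control in 8 genes.

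The widest separation was found in TR5137|c0_g1, whose isoforms i3 and i1 have coding lengths of 2361 and 1578 bases. The longer isoform held 65.1% of the gene's reads in heat replicate 1 (exact 95% binomial interval 57.9% to 71.4%), 69.6% in replicate 2 (62.7% to 75.5%) and 75.6% in replicate 3 (69.9% to 80.6%). In control replicates 1 to 3 it held 5.84% (2.17% to 12.2%), 9.17% (2.53% to 21.7%) and 7.01% (4.09% to 10.9%). These intervals, here and below, cover counting error only. All 3 controls lay close together, and control 2, at 44 reads for the gene, was the least precise. The means were 70.1% ± 5.25 in heat and 7.34% ± 1.69 in the controls (SD, n = 3 per group).

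The levels of the isoforms of TR5137|c0_g1 lay on opposite sides. The longer one stood at 40.2, 49.8 and 85.3 CPM (a library's reads scaled to a common depth, with TMM factors) in heat replicates 1 to 3, and at 5.03, 6.33 and 8.01 CPM in controls 1 to 3. The shorter one stood at 21.5, 22.0 and 27.6 CPM in heat, against 81.3, 63.3 and 107 CPM in controls 1 to 3. Neither isoform had overlapping groups. In bulk leaf RNA, fewer cells of a type and less RNA per cell cannot be told apart. The gene's total overlapped between the groups, with 82.1 ± 27.0 CPM in heat and 90.4 ± 23.1 CPM in control leaves (SD, n = 3 each). The shorter isoform carries a second coding model of 216 bases, whose small effective length gives it a large TPM. With both models the difference in TPM share was 18.5 percentage points, against 62.7 by reads, and with the longest model of each isoform alone it was 60.9.

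In TR66777|c0_g1 the gaining isoform was listed at 0 reads in all 3 controls. Its isoforms i2 and i1 differ little in coding length, 1437 against 1407 bases. The longer one took 20 of 33 reads in heat replicate 1, 43 of 73 in replicate 2 and 23 of 43 in replicate 3. That is a share of 60.9% (42.1% to 77.1%), 58.9% (46.8% to 70.3%) and 54.1% (37.7% to 68.8%). In the controls it took 0 of 56, 0 of 23 and 0 of 44 reads. The exact intervals there reach up to 6.38%, 14.8% and 8.04%. An allowance of 3 reads gives 5.36%, 13.0% and 6.82%, and 2.44% over the 123 control reads together. All these limits take every read as able to tell the isoforms apart. Salmon divides shared reads, and how many were shared is not known here, so the true limits may be wider.

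The level of the longer TR66777|c0_g1 isoform was 6.05, 14.6 and 9.76 CPM in heat. Against an allowance of 3 reads over all controls, its pooled heat level was 13.1-fold higher. That ratio leaves out the spread between libraries and the uncertainty in dividing shared reads. The shorter isoform, at 3.93, 10.2 and 8.49 CPM in heat against 46.9, 36.4 and 20.7 CPM in controls 1 to 3, was lower in every heat library. Because both coding lengths are nearly equal, division by length changed little, and the difference was 58.0 percentage points by reads and 57.4 by TPM.

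TR10191|c0_g1 was the gene with 3 isoforms, of 687 bases (i2), 336 bases (i3) and 294 bases (i1). The 687-base isoform held 47.0% (40.5% to 53.9%), 42.0% (33.3% to 51.2%) and 41.8% (31.8% to 52.6%) of reads in heat replicates 1 to 3. In controls 1 to 3 it held 0.746% (0.0189% to 4.09%), 3.46% (0.420% to 11.9%) and 16.6% (9.31% to 27.1%). Control 3 was the control nearest to heat, with 13 of 77 reads.

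The 336-base isoform of TR10191|c0_g1 accounted for nearly all reads in controls 1 and 2. Its share was 99.3% in control 1, 94.8% in control 2 and 75.9% in control 3, against 38.3%, 42.6% and 41.4% in heat. The 294-base isoform had 14.6%, 15.4% and 16.8% in heat and 0, 1.73% and 7.53% in the controls. It too was higher in every heat library, although its separation was below the threshold. Levels followed the shares, with 22.3 ± 8.74 CPM in heat against 3.37 ± 2.65 CPM in control leaves for the 687-base isoform, and 20.2 ± 5.36 against 75.3 ± 43.3 CPM for the 336-base isoform (SD, n = 3 per group). The 336-base isoform stood at 26.3, 18.3 and 16.1 CPM in heat and at 111, 87.0 and 27.3 CPM in controls 1 to 3. Control 3 thus lay close to heat replicate 1. By TPM the difference for the 687-base isoform was 17.2 percentage points, against 36.7 by reads.

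TR49262|c0_g1 had the most reads of the 10 genes, up to 653 in a library. Its 1764-base isoform (i5) held 53.6% (48.9% to 58.4%), 58.2% (54.2% to 62.0%) and 54.1% (50.3% to 58.1%) of reads in heat replicates 1 to 3. The controls were spread more widely, at 3.45% (0.717% to 9.75%), 20.2% (10.4% to 33.0%) and 29.4% (23.1% to 37.1%). The means were 55.3% ± 2.49 and 17.7% ± 13.2 (SD, n = 3 per group). By TPM the mean shares were 39.8% in heat and 10.7% in the controls, so this isoform was then the smaller in both groups. The rule applied to TPM did not take this gene.

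The 1764-base isoform of TR49262|c0_g1 stood at 71.4, 125 and 150.3 CPM in heat, above all controls, which had 2.51, 17.4 and 24.5 CPM. The 1014-base isoform (i4) did not move the other way. Its heat values of 61.7, 90.2 and 127 CPM overlapped the control values of 70.4, 69.6 and 58.4 CPM. The gene's total was 208 ± 72.4 CPM in heat against 80.7 ± 7.53 CPM in control leaves (SD, n = 3 each), so its shift came with more reads for the gene.

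The other 6 genes are named by the coding lengths of their gaining and losing isoforms. In the gene of 2223 and 2199 bases, the longer isoform held 51.1%, 54.1% and 65.1% of reads in heat replicates 1 to 3. It had 0 of 77 and 0 of 25 reads in controls 1 and 2, and 26.4% in control 3. For controls 1 and 2 the exact intervals reach 4.68% and 13.7%, and an allowance of 3 reads gives 3.90% and 12.0%. These limits again take every read as able to tell the isoforms apart. Control 3 stood apart from the other controls, with 20 of its 75 reads in this isoform.

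The gene of 957 and 510 bases had 65.9%, 73.7% and 70.5% of its reads in the longer isoform in heat, and 8.79%, 28.4% and 43.1% in controls 1 to 3. The gene of 525 and 276 bases had 71.7%, 75.8% and 71.4% in heat and 15.8%, 29.1% and 48.8% in the controls. The gene of 426 and 261 bases had 64.0%, 61.2% and 66.7% in heat and 12.3%, 15.1% and 39.7% in the controls. In these 3 genes the heat libraries ranged over 4.39 to 7.86 points and the controls over 27.4 to 34.3 points, with control 1 lowest and control 3 highest.

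In the gene of 1818 and 1224 bases, 48.6%, 46.8% and 52.4% of reads lay in the longer isoform in heat, against 2.68%, 4.22% and 25.8% in the controls. The gene of 1299 and 519 bases had 46.2%, 56.5% and 51.5% in heat and 5.43%, 5.88% and 25.7% in the controls. Its losing isoform also carries a coding model of 447 bases, and both models count in its share. In the authors' deposited edgeR table the 519-base model has a log2 difference of heat from control of -0.196 (FDR 0.917). The 447-base model has -2.06 (FDR 0.0681), so the fall was larger there. This gene was the nearest to the threshold from inside, separated by 20.5 points. The nearest genes outside were separated by 19.95, 19.8 and 19.4 points, and 68 genes lay between 10 and 20 points.

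The counting intervals of heat and control libraries touched in 2 of the 10 genes, that of 1299 and 519 bases and that of 426 and 261 bases. The rule chose the genes for their separation, so this is no test of it. Reads per gene and library ran from 23 to 653, and 3 of the 10 genes had at least 50 in every library. Control 2 was the shallowest for these genes, with a median of 40.5 reads a gene, against 86.5 and 90.5 in controls 1 and 3 and 147, 130.5 and 105 in heat replicates 1 to 3.

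Levels of single isoforms showed how the shares came apart. The gaining isoform was higher in CPM in every heat library than in every control for 9 of the 10 genes, where 18.6% of the 1563 isoforms of genes with 2 or more tested isoforms were. The losing isoform was lower in every heat library for 8 of the 10, where 19.3% of the 1563 were, and for 6 when libraries were scaled by DESeq2 size factors or by library totals. Both held for 7 genes. Since the rule used this contrast, nothing is read from these counts. The mean level of the gaining isoform was 1.38 to 9.06 times as high in heat for the 9 genes with reads in the controls. The losing isoform was 1.67 to 5.07 times as high in the controls for 9 genes, and TR49262|c0_g1 was the exception, at 1.41 times as high in heat. The smallest ratio among the gaining isoforms was in the gene of 426 and 261 bases, whose longer isoform had 14.3 ± 4.37 CPM in heat against 10.4 ± 4.71 CPM in control leaves (SD, n = 3 each).

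**Figure D2:**
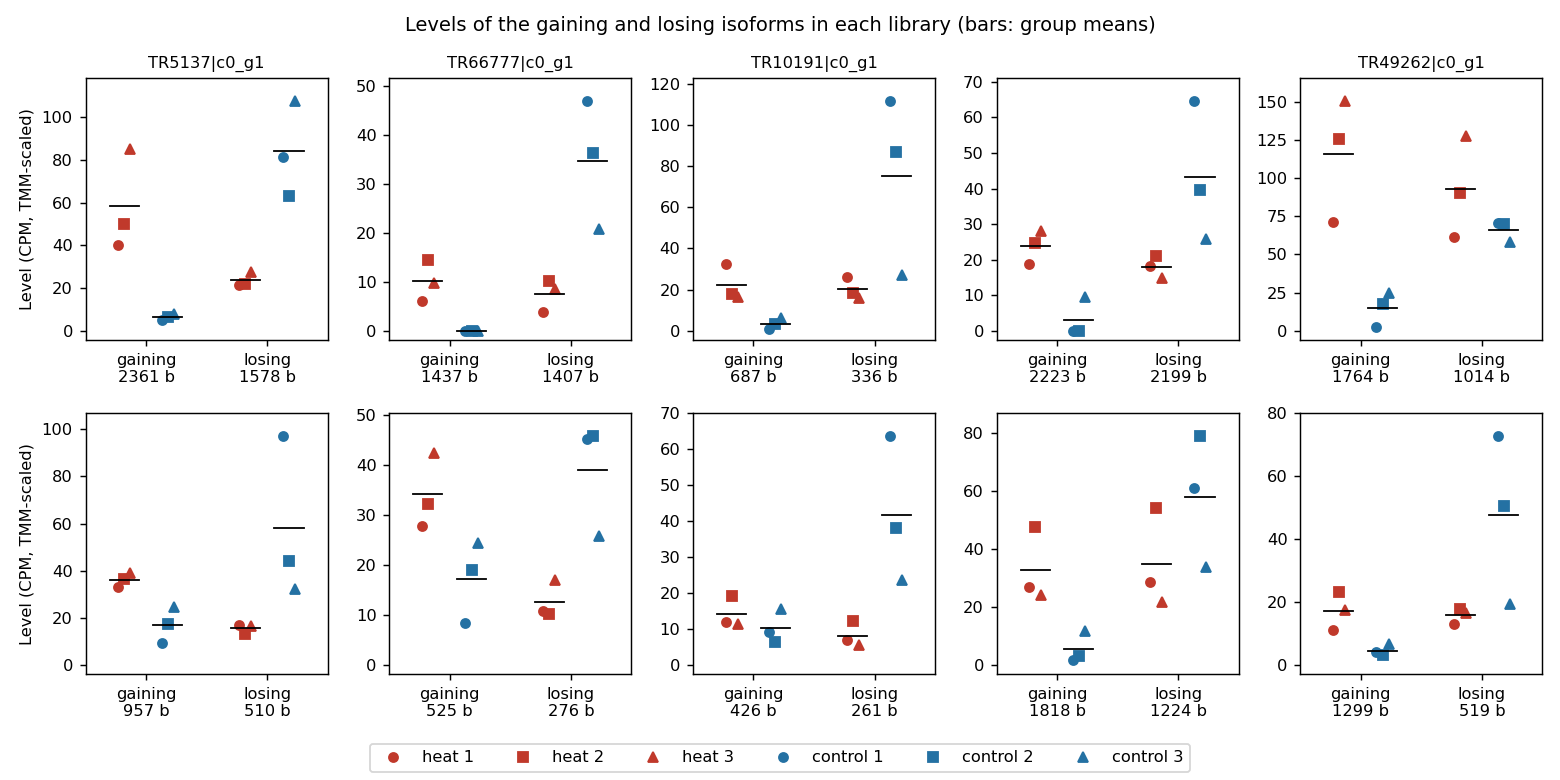
Level in CPM (y axis, linear, own scale per panel) of the gaining and losing isoform of each of the 10 genes, with 1 point per library and a bar at each group mean; panels without an identifier are known by the coding lengths (b, bases) under them. The gaining isoform is higher in all heat libraries in 9 panels, and the losing isoform is higher in heat on average in 1, TR49262|c0_g1.

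The log2 difference of heat from control in the genes' total levels, by edgeR's quasi-likelihood fit, ran from -1.21 to 1.37 over the 10 genes, with a median of -0.40, where the median over all 22092 tested genes was 0.06. With library totals in place of TMM scaling these medians were -0.22 and 0.22, and with DESeq2 size factors -0.26 and 0.20. The difference was within 1 log2 unit in either direction for 8 of the 10 genes and for 51.4% of all genes. It was below 0 for 8 of the 10 with TMM scaling and for 6 with library totals. TR49262|c0_g1 was the highest, and the gene of 426 and 261 bases the lowest. The latter's total was 22.5 ± 7.86 CPM in heat against 51.9 ± 17.3 CPM in control leaves (SD, n = 3 each).

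At an adjusted p of 0.05, edgeR's quasi-likelihood test called 0 of the 10 gene totals, where it called 0.00453% of all genes higher (1 gene) and 0 lower. Without adjustment, p was under 0.05 for 2987 genes with higher and 3418 with lower totals in heat, and DESeq2 called 1944 and 1552 at an adjusted p of 0.05, with 1 of the 10 genes among them. The smallest adjusted p among the 10 in edgeR's test was 0.106. Without control 3, edgeR's test called 3 of the 10, where it called 8255 genes higher and 5031 lower of 24527 tested. The total lay above all controls in every heat library for 1 of the 10 genes, where 22.4% of all genes did, and below them for 2, where 16.5% did.

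A standard test of isoform usage was also run over the whole table. edgeR's diffSpliceDGE compares each isoform's change with that of its gene, and it called 3 of 1563 isoforms, or 0.192%, at an adjusted p of 0.05. Of these, 2 were among the 21 isoforms of the 10 genes. The same contrast chose the genes, so this count supports nothing. Leaving out heat 1, 2 or 3 or control 1 or 2 gave 0 calls. Leaving out control 3 gave 480 of 1779 isoforms tested, of which 15 belonged to the 10 genes.

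The controls were not alike, and the shares of these genes followed that. Control 3 had the highest share of the gaining isoform among the controls in 8 of the 10 genes. Over the 10 genes the median share was 4.44% in control 1, 7.53% in control 2 and 26.1% in control 3, against 57.2%, 58.5% and 59.6% in heat replicates 1 to 3. On a scale from the mean of controls 1 and 2 to the mean of heat, control 3 lay at a median of 0.45. It lay at 0.35 to 0.52 in 8 genes. In TR5137|c0_g1 it fell between the other controls and in TR66777|c0_g1 all 3 were at 0 reads. The heat libraries ranged over less than the controls in 8 of the 10 genes, with a median range of 6.18 against 24.5 points. This was not particular to the 10 genes. Over all genes the rule could be applied to, the longest isoform's share had a median range of 7.75 points in heat and 25.7 in the controls.

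Long isoforms had lower shares in controls 1 and 2 across the other genes as well. Over all 537 genes the median share of the longest isoform was 78.2%, 76.8% and 80.4% in heat replicates 1 to 3, 48.4% and 58.6% in controls 1 and 2, and 75.7% in control 3. Its median difference between the group means was 12.4 percentage points, against 41.7 for the 10 genes. The rule chose the 10 by these shares, so nothing is read from their larger value. A gene outside the rule had a difference of 53.9 points. The longest isoform had a higher share in every heat library than in every control in 30.9% of the 537 genes and a lower one in 14% of them. At a separation of over 10 points these were 62 and 11 genes. On the TPM scale the counts at over 10 points were 57 and 30. At any separation they were 176 and 73 by TPM, against 166 and 75 by reads. The median TPM share of the longest isoform was 19.5% and 29.4% in controls 1 and 2, 38.6% in control 3, and 43.0% to 46.5% in heat.

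**Figure D3:**
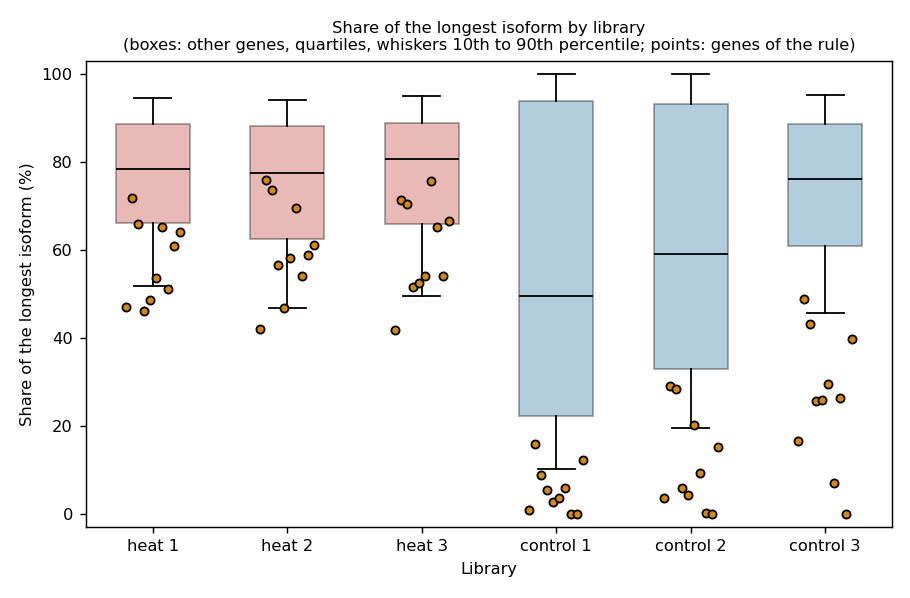
Share of the longest isoform (y axis, %) by library (x axis): boxes give quartiles and median of the 527 other genes, whiskers the 10th and 90th percentiles, and points the 10 genes of the rule. The boxes of controls 1 and 2 reach lower than those of the heat libraries and control 3, and the points lie low in all 3 controls.

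**Figure D4:**
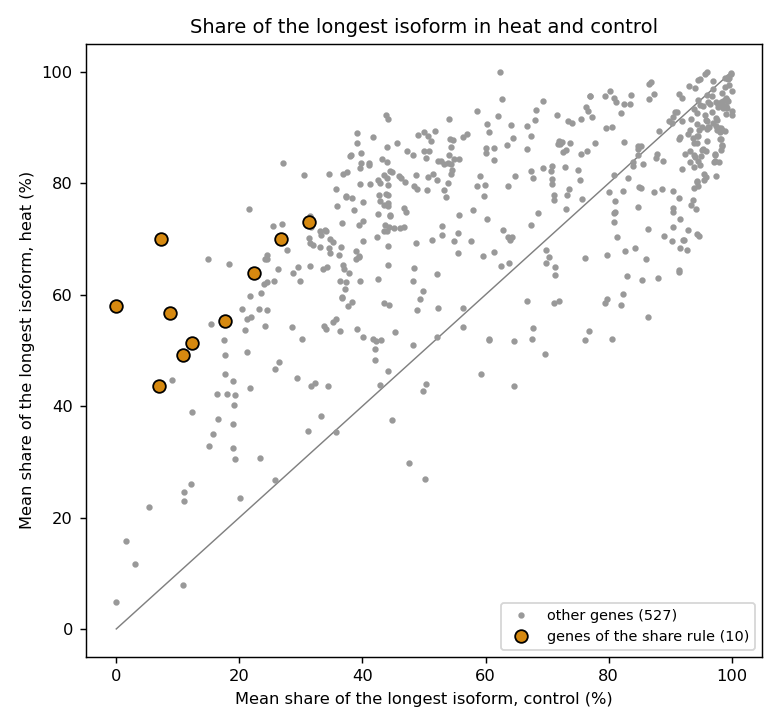
Mean share of the longest isoform in control (x axis, %) and heat (y axis, %) for the 527 other genes (grey) and the 10 genes of the rule (orange), with the line of equal shares. Of the 537 genes, 358 lie above the line and 179 below it. The 10 lie above it at the left, at heat means of 43.6% to 73.0%.

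Depth, fragment length and the length of the transcripts read also differed between the libraries. Estimated reads were 2425787 to 3570524 per heat library, 1337663 and 730315 in controls 1 and 2, and 2153266 in control 3. Coding models of 1500 bases or more took 15.2% to 18.9% of reads in heat, 9.44% and 9.71% in controls 1 and 2, and 15.5% in control 3. Fragments, as read from Salmon's effective lengths, had 132.7 and 140.6 bases in controls 1 and 2, 140.4 in heat replicate 2, and 158.9 to 165.9 in the other 3 libraries. Their part in the shifts was not tested. Controls 1 and 2 had lower shares of long isoforms over the 537 genes as a whole, so in most of the 10 genes a shift with heat and a difference between the control libraries cannot be told apart.

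Heat replicate 2 had fragments about as long as those of control 2 and longer than those of control 1. It had the lowest share of the gaining isoform among the heat libraries in 2 of the 10 genes and the highest in 4. Within the short-fragment libraries, heat replicate 2 exceeded the mean of controls 1 and 2 by 39.9 to 62.0 points over the 10 genes. Within the long-fragment libraries, heat replicates 1 and 3 exceeded control 3 by 22.7 to 63.3 points. The rule requires at least 20 points in both, so these values are a description and support nothing. The difference from control 3 was 63.3 points in TR5137|c0_g1 and 57.5 in TR66777|c0_g1.

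Of the 10 models of gaining isoforms, the authors' deposited table calls 5 higher in heat and 0 lower at an FDR of 0.05. Over all models in the authors' deposited table, 5.06% are called higher and 3.43% lower. Among the models of losing isoforms, 12 in number, 1 is called lower and 0 higher in the authors' deposited table. It rests on the same libraries and contrast, so nothing is read from these counts. Its log2 fold changes correlated at r = -0.92 across 43380 models with the difference of heat from control computed from the counts, so they are coded as control relative to heat and are reversed here. For the gaining isoform the authors' deposited table gives a reversed log2 fold change of 3.28 in TR5137|c0_g1, with an FDR of 0.00234. In TR66777|c0_g1 the authors' deposited table gives 7.52 with an FDR of 0.00256, a fold that rests on controls at 0 reads.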

How the data were processed

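Leaf RNA of 6 libraries (3 heat, 3 control) was sequenced on a MiSeq in pairs of 76-base reads, per the labels' protocols. The authors quantified coding models with Salmon and tested them with edgeR, per the submitters' processing notes; the sources used here give neither versions nor the transcript reference. The authors deposited, per the file headers, estimated counts (expected counts, with shared reads divided), TPM values and lengths per model, and a table of log2 fold changes, p-values and FDR values. Lengths are taken as coding lengths because 99.99% of them divide by 3.

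Estimated counts were summed per isoform and per gene by identifier, and rounded to whole numbers for tests and intervals. Shares used unrounded reads. How Salmon divides reads shared by isoforms is uncertain at low counts and moves shares directly. The gene list, the threshold and the alternatives were chosen with earlier results of these data known. Gene totals and isoform usage were tested in R 4.3.3 with edgeR 4.0.16 (filterByExpr, TMM, robust quasi-likelihood, Benjamini-Hochberg adjustment over all tested genes or isoforms), after the scripts were tested on simulated data. DESeq2 1.42.0 and limma 3.58.1 were alternatives. Intervals are exact (Clopper-Pearson), and a count of 0 allows 3 counts. Isoforms of a gene share reads, and genes are not replicates.

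The naming rule took, for genes whose longer and whose shorter isoform gained, the 2 of each with the widest separation and at least 50 reads in every library. The second class was empty, so 2 more were taken from all genes by separation. Libraries above and below 150 bases of fragment length were called long-fragment and short-fragment, as an earlier look at these data had divided them. No reference sequence was used here.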

Additional observations from a re-analysis of the deposited data

How the results depend on the processing

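The number of genes passing the share rule followed its thresholds and the controls used. It was 10, and 14 with a minimum of 10 reads, 3 with a minimum of 50 reads, 78 at a separation of 10 points and 3 at 30 points, 12 by TPM, and 24 with each coding model as its own unit. Leaving out 1 library gave 10 to 217 genes, which include the 10 by construction; 217 came from leaving out control 3, and leaving out any other library gave 10 to 21. Further settings, chosen after seeing the data, gave 39 genes without controls 1 and 2, 54 within the long-fragment libraries, 247 within the short-fragment libraries, and 13 by TPM of the longest model of each isoform. The longer isoform gained in 66 of the 78 genes at 10 points, in 204 of the 217, and in 6 of the 12 by TPM. It gained in 10 of the 10 also with read-weighted lengths. The largest isoform differed between groups in 9 genes by reads and in 3 by TPM.

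Gene totals gave 1 gene higher and 0 lower in edgeR's quasi-likelihood test, 9 higher without a filter, and 1944 higher and 1552 lower in DESeq2. Leave-one-out counts ran from 0 to 8255 higher and from 0 to 5031 lower. Both high values are without control 3, and the other 5 libraries gave 0. The usage test called 3 isoforms, 1 without a filter, 5 with limma's diffSplice, and 0 to 480 with 1 library left out. With the replicate number as a block, gene totals gave 27 higher and 30 lower of 22092 tested, with 0 of the 10 genes called. The usage test then called 0. The samples share only a number: no label ties them, and the 3 same-numbered correlations of deviations were 0.02, 0.17 and 0.35. DESeq2 size factors and library totals changed none of the 3 counts. For the 4 named genes, 3 of 36 alternative values of the difference in mean share moved by more than 1 SD between replicates, all 3 by TPM, and 0 changed sign. The 36 values are not all distinct. In TR10191|c0_g1 both TPM settings gave the same 17.2 points, because each of its isoforms has 1 model. For TR5137|c0_g1 the TPM value came back to 60.9 points with the longest model of each isoform alone; for the other changes the cause was not tested. Depth limits the shares: control 2 had 23 to 58 reads a gene, and a share of 29.1% there had an interval of 15.7% to 44.6%.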
